A study of Mus musculus with 4 samples.

Results

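The Runx motifs are the 7 entries of a table of chromVAR deviation scores whose factor symbol is Runx1, Runx2 or Runx3, out of 1346 motif entries in all. They were taken by symbol, not by score, but with earlier results of these data known. Runx1 had 1 entry, Runx2 had 1 and Runx3 had 5. The scores came from ATAC-seq, in which a transposase cuts the DNA it can reach in nuclei, of CD4+ FOXP3+ regulatory T cells (Tregs) from mouse spleen. All mice were B6.Cg-Foxp3tm2Tch/J, a FOXP3-IRES-GFP reporter strain in which GFP is read from the Foxp3 locus, with the genotype given as WT. They received vehicle or venetoclax, a drug that blocks the survival protein BCL-2, at a dose of 50 mg/kg over 14 days, with 2 samples per treatment. The labels call the samples biological replicates but tie none to an animal, so the p-values reflect only how far these samples spread, which may be technical. The scores hold no gene expression, so the sorted cell type could not be checked against marker genes.

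Runx proteins bind DNA through a shared runt domain and gain affinity and stability from their partner Cbfb. The letters TGTGGT, or ACCACA on the other strand, form the core of their recognition site, with TGCGGT as a common variant. Runx1 is needed for blood stem cells and for T cell development. Runx2 directs bone formation. Runx3 silences Cd4 in the CD8 lineage and takes part in Th1 and cytotoxic programmes. In Tregs, Runx complexes with Cbfb bind the Foxp3 locus and help to maintain Foxp3 expression, and Runx1 interacts with Foxp3 protein. As these factors read nearly the same letters, a score describes a sequence. It says nothing of how much of the named protein is made or bound. The motif matrices behind the Runx entries were not available, so the letters that each entry scores are not known here.

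The recognition letters are shown here in DNA of the Runx genes, which carry them beside their own start sites. In GRCm38.p6, Runx1 (ENSMUSG00000022952) spans chr16:92601466-92826074, Runx2 (ENSMUSG00000039153) chr17:44495987-44814797 and Runx3 (ENSMUSG00000070691) chr4:135120645-135177990. RefSeq promoter windows, from 250 bases before a start to 50 after it, were given for all 3 genes and numbered 5. Of these windows 3, the first of each gene, held ACCACANNACCACA, a pair of cores 2 bases apart. The 30 bases around each pair are printed 5′ to 3′ on the strand of the gene, with both copies of the core in capitals.
Runx1, chr16:92826025-92826054, minus strand: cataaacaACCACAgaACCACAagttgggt
Runx2, chr17:44814583-44814612, minus strand: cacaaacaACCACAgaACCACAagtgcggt
Runx3, chr4:135120503-135120532, plus strand: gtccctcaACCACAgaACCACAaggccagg
The first base of the pair is base 29 counted from the start of transcription in Runx1 and base 24 in Runx2, so both lie in the transcribed part. In Runx3 it lies 134 bases before the start. The core TGTGGT was found on either strand in 16.8% of 32851 RefSeq promoter windows, and TGCGGT in 6.45%. The pair, picked after the sequences had been seen, was in 7 windows, or 0.0213%, of which 3 were those of the Runx genes. No accessibility of these windows was used, and a match of letters is not a bound site.

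No Runx motif differed between venetoclax and vehicle past the threshold, an adjusted p of 0.05 in limma. In the same test 0% of all 1346 entries passed. The 7 differences, venetoclax minus vehicle in score units, ranged from -1.01 to 1.56. A positive score means that peaks with the motif were more accessible in a sample than the method expects, and a negative score less. The method takes this expectation from the samples it was run on, so a score is no absolute level of accessibility. Whether samples beyond these 4 were among them is unknown. Differences above 0 were found for 5 of the 7 Runx entries and for 38.7% of all entries. Without vehicle replicate 1 the Runx count was 3 of 7. The median difference was 0.40 for the Runx entries and -0.29 for all entries. Without vehicle replicate 1 the Runx median was -0.075, the value of both Runx1 LINE1674 and Runx3 LINE7301, which hold the same scores. With the copy LINE7301 left out, the middle values were -0.075 (Runx1) and 0.26 (Runx2), so the sign of that median depended on the copy. With all 4 samples the median over the 6 distinct sets of scores was 0.39. Each score comes without read counts, so the depth behind it is unknown.

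**Figure D1:**
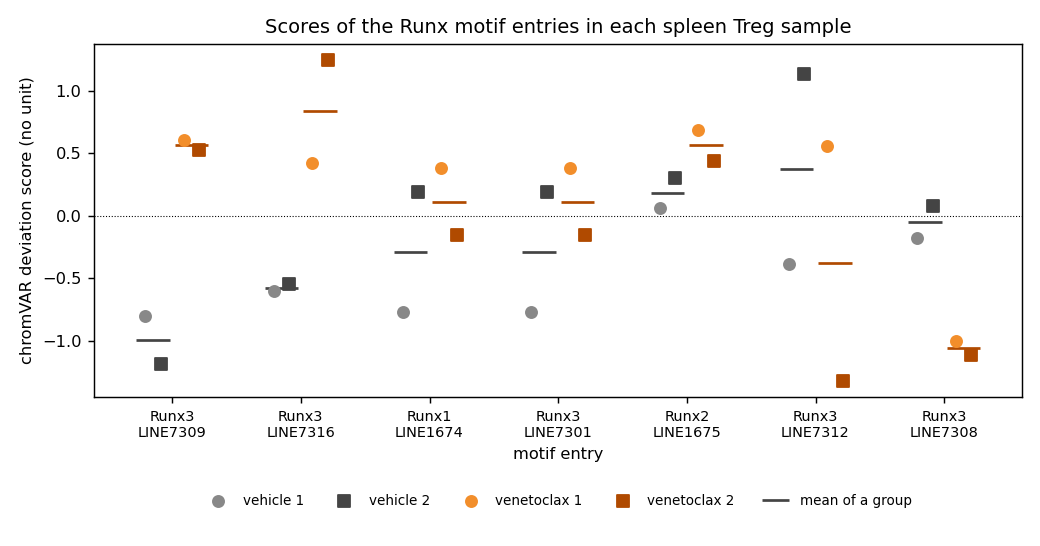
Deviation score (vertical axis, no unit) of each Runx motif entry (horizontal axis) in the 2 vehicle and 2 venetoclax samples, with a line at the mean of each group. The groups are apart for Runx3 LINE7309, LINE7316 and LINE7308 and for Runx2, and they overlap for Runx1 LINE1674 and Runx3 LINE7301 and LINE7312.

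Runx1 had a single entry, LINE1674, whose name ends in D. In the CIS-BP motif collection D marks a motif determined directly and I a motif inferred from a related protein, but the collection used is not given in the sources used here. The Runx1 score was -0.77 and 0.19 in the vehicle samples and 0.38 and -0.16 in the venetoclax samples. Vehicle replicate 1 was the lowest of the 4 and venetoclax replicate 1 the highest, and the groups overlapped. Group means were -0.29 ± 0.68 (vehicle) and 0.11 ± 0.38 (venetoclax; SD, n = 2 each). Venetoclax minus vehicle was 0.40 (SE 0.70, limma adjusted p = 0.799), with a 95% interval from -1.06 to 1.86. It ranged from -0.075 without vehicle replicate 1 to 0.88 without vehicle replicate 2. The vehicle samples alone were 0.96 apart, more than the difference between the groups.

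Runx2 had a single entry, LINE1675, which ends in I. Its score was above 0 in all 4 samples, at 0.06 and 0.31 with vehicle and at 0.69 and 0.44 with venetoclax. Both venetoclax samples were above both vehicle samples. Group means were 0.18 ± 0.17 (vehicle) and 0.56 ± 0.18 (venetoclax; SD, n = 2 each). The difference was 0.38 (SE 0.68, limma adjusted p = 0.802), with a 95% interval from -1.04 to 1.80. Leaving out single samples gave values between 0.26 and 0.50. Runx2 was the Runx entry with the smallest difference, and 73.9% of all entries differed by more in either direction.

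Runx3 had 5 entries, all ending in I with a tag from N1 to N3 whose meaning is not given in the sources used here. Runx3 LINE7301 repeated the 4 scores of Runx1 LINE1674 and adds no measurement, so the 7 entries held 6 distinct sets of scores. Of the remaining Runx3 entries, LINE7309 and LINE7316 had positive differences and LINE7312 and LINE7308 negative ones. The motif named Runx3 thus gave no single direction.

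Runx3 LINE7309 scored -0.80 and -1.19 in the vehicle samples and 0.61 and 0.53 in the venetoclax samples. The vehicle scores were below 0 and the venetoclax scores above 0, with no overlap. The difference was 1.56 (SE 0.68), with a 95% interval from 0.14 to 2.98. Its limma p was 0.0332 before adjustment and 0.245 after, so it did not pass. It was the 1 Runx entry of 7 with an unadjusted p under 0.05, against 18.3% of all entries in either direction and 6.39% of all entries in the same direction. Leaving out single samples gave differences between 1.37 and 1.75. Within a sample, the score stood at percentile 17.2 and 6.98 of all entries with vehicle and at percentile 71.25 and 80.4 with venetoclax.

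Runx3 LINE7316 scored -0.60 and -0.55 in the vehicle samples and 0.43 and 1.25 in the venetoclax samples. The vehicle samples lay close together, the venetoclax samples were 0.82 apart, and the groups did not overlap. The difference was 1.41 (SE 0.69, limma adjusted p = 0.288), with a 95% interval from -0.03 to 2.85. It ranged from 1.00 without venetoclax replicate 2 to 1.82 without venetoclax replicate 1. In the latter fit the limma adjusted p was 0.053, the smallest of any Runx entry in any fit.

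Runx3 LINE7308 scored -0.17 and 0.08 in the vehicle samples and -1.003 and -1.11 in the venetoclax samples. Both groups were tight, and the venetoclax samples were the lower ones. Group means were -0.05 ± 0.18 (vehicle) and -1.06 ± 0.07 (venetoclax; SD, n = 2 each). The difference was -1.01 (SE 0.68, limma adjusted p = 0.466), with a 95% interval from -2.43 to 0.41. Leaving out single samples gave values between -1.13 and -0.88. LINE7308 and LINE7309 carry the same tag, I_N2, and had differences of opposite sign.

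Runx3 LINE7312 scored -0.39 and 1.13 in the vehicle samples and 0.56 and -1.32 in the venetoclax samples. The highest sample was a vehicle sample, the lowest a venetoclax sample, and both were replicate 2. The groups overlapped. Replicates were 1.52 apart with vehicle and 1.88 apart with venetoclax, the widest gaps of any Runx entry. The difference was -0.75 (SE 0.78, limma adjusted p = 0.657), with a 95% interval from -2.37 to 0.86. It was 0.19 without venetoclax replicate 2 and 0.01 without vehicle replicate 2, so its sign depended on those samples.

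**Figure D2:**
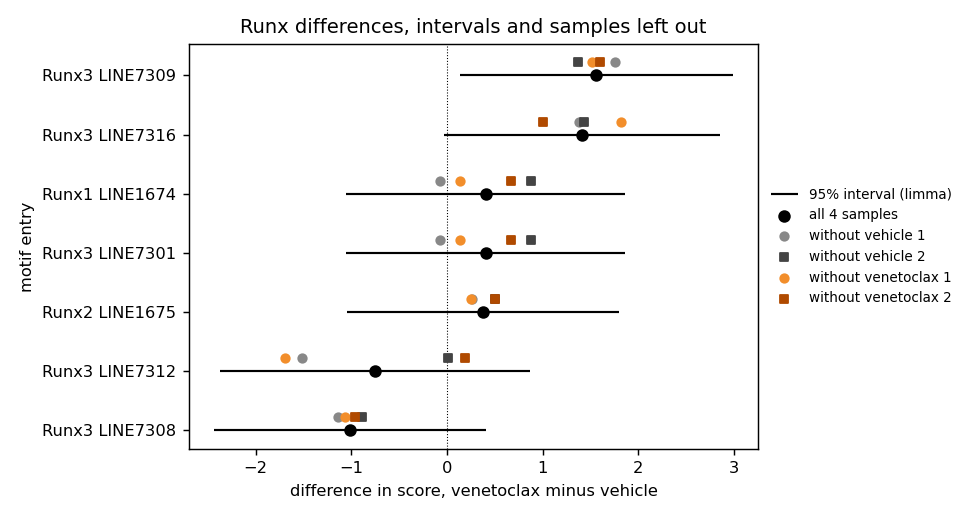
Difference in score, venetoclax minus vehicle (horizontal axis), of each Runx entry with its 95% limma interval, and above it the difference with each of the 4 samples left out. Runx3 LINE7309 is the entry whose interval leaves out 0, from 0.14 to 2.98 before adjustment, while Runx1 LINE1674, Runx3 LINE7301 and Runx3 LINE7312 have left-out values on both sides of 0.

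Counted over the 7 entries, the venetoclax and vehicle samples did not overlap for 4, against 48.3% of all entries. They were higher with venetoclax for 3 (LINE7309, LINE7316 and Runx2 LINE1675), against 17.2% of all entries. They were lower for 1 (LINE7308), against 31.1% of all entries. The median gap between replicates was 0.39 with vehicle and 0.54 with venetoclax for the Runx entries, and 0.54 and 0.84 for all entries. The 95% interval of a Runx entry reached from 1.42 to 1.62 score units to either side, which was more than the difference itself for 6 of the 7.

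**Figure D3:**
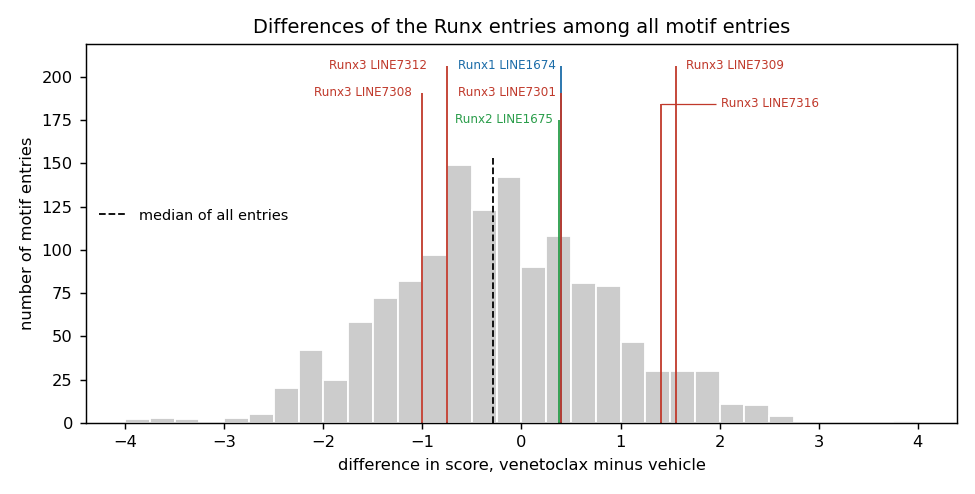
Number of motif entries (vertical axis) by difference in score, venetoclax minus vehicle (horizontal axis), with coloured lines at the 7 Runx entries. The Runx lines run from -1.01 to 1.56, 5 of them above 0, and the dashed line marks the median of all 1346 entries at -0.29.

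The all-entry median of -0.29 moved to -0.03 when scores were centred on the median of their sample, so Runx differences were also read relative to it. Centred differences were 1.82 for LINE7309, 1.67 for LINE7316, 0.66 for Runx1 LINE1674 and LINE7301, 0.64 for Runx2, -0.49 for LINE7312 and -0.75 for LINE7308. The share of all entries above 0 was 49.6% after centring, and 5 of 7 Runx entries were above 0 as before. No Runx entry changed sign on centring, on division by the SD of each sample or on quantile normalization.

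Across samples the Runx motifs as a family stood lowest in vehicle replicate 1. There 6 of 7 entries were below 0, with a Runx median of -0.60 against 0.18 for all entries. In vehicle replicate 2 the Runx median was 0.19 against 0.15 for all entries. In the venetoclax samples it was 0.43 against 0.09 in replicate 1 and -0.16 against -0.28 in replicate 2. Over the 6 distinct sets, which leave out the copied scores of LINE7301, the Runx medians were -0.49 and 0.13 with vehicle. With venetoclax they were 0.49 and 0.14, so the sign in venetoclax replicate 2 depended on the copy. Venetoclax replicate 1 had 6 of 7 Runx entries above 0 and venetoclax replicate 2 had 3 of 7. The vehicle samples therefore differed from each other in the Runx median by more than the venetoclax samples did.

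Venetoclax replicate 2 stood apart over all entries. Its Pearson correlation across entries with the other 3 samples ran from -0.74 to 0.09, while those 3 correlated at 0.38 to 0.60 with each other. Entries are not independent, and the samples may have been scored together. Without venetoclax replicate 2 the differences were 1.60 for LINE7309, 1.00 for LINE7316, 0.67 for Runx1, 0.50 for Runx2, 0.19 for LINE7312 and -0.96 for LINE7308. Without venetoclax replicate 1, limma called 25.0% of all entries and 0 of 7 Runx entries. With a trended and robust variance it called 5.50% of all entries and 0 of 7 Runx entries.

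The Runx entries differed among themselves. The Euclidean distance over the 4 samples between 2 distinct Runx sets was 1.79 at the median of 15 pairs, against 2.20 at the median of all pairs of distinct sets. The closest pair was LINE7309 and LINE7316, at 1.00, followed by Runx1 LINE1674 and Runx2 LINE1675, at 1.07. The farthest pair was LINE7316 and LINE7312, at 3.08, although both are named Runx3. Differences of the 5 Runx3 entries spanned 2.57 score units. Of 35 symbols with at least 5 distinct sets of scores, the median span was 2.84 and 34 had entries of both signs, as Runx3 did.

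Motifs of other symbols were searched for those whose 4 scores lay nearest to the mean of the 6 Runx sets. Runx entries were left out of the search. The nearest were a motif shared by Thra and Thrb, the thyroid hormone receptors (distance 0.21), and Pax8, a thyroid and kidney factor (0.27). Next came Tead4, a Hippo pathway factor (0.30), and Gata1, an erythroid factor (0.30). The difference of these motifs was 0.50, 0.10, 0.27 and 0.45, in that order, each for the nearest entry of its symbol. Over all their distinct sets, differences ran from -0.18 to 2.70 for Thra and Thrb (7 sets each) and from -1.81 to 1.23 for Pax8 (13 sets). The Runx sets themselves lay from 0.40 (Runx1 LINE1674) to 1.72 (LINE7312) from their own mean, each farther than these nearest motifs. Those motifs were picked for being nearest among all other entries, so no greater likeness can be read from this.

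Factors that act beside Runx in T cells were taken from a list of 18 symbols, of which 15 had an entry. Cbfb, the Runx partner, had none, and neither had Ikzf2 and Satb1. Of the 18 entries, limma called 0 at an adjusted p of 0.05 and 1 at an unadjusted p of 0.05, against 18.3% of all entries at the latter. Differences were above 0 for 8 and below for 10, against 38.7% of all entries above 0. The list median was -0.12, and it was 0.14 after centring and 0.095 after quantile normalization, so it gave no stable direction.

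Motifs of Foxp3, the Treg lineage factor, and of Gata3, which directs Th2 cells, had negative differences that did not pass. The Foxp3 score was 0.43 and 0.97 in the vehicle samples and 0.15 and -1.85 in the venetoclax samples, a difference of -1.55. The Gata3 score was -0.02 and 2.09 in the vehicle samples and 0.72 and -2.20 in the venetoclax samples, a difference of -1.77, with overlapping groups. In both, venetoclax replicate 2 was the lowest sample by far, and without it the difference was -0.55 for Foxp3 and -0.31 for Gata3. Without vehicle replicate 2 the Gata3 difference was -0.72. Smad3, a mediator of TGF-beta signalling, differed by -1.24, and was at -0.82 without venetoclax replicate 2. The calcium-regulated factors Nfatc1 and Nfatc2 differed by -0.83 and 0.22, and Nfatc2 turned to -0.09 without vehicle replicate 2.

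Of factors that bind close to Runx sites, Ets1, an ETS factor that binds DNA together with Runx1, had its largest difference at 0.97, which was 0.63 without vehicle replicate 2. Its scores were 0.21 and -0.48 with vehicle and 0.59 and 1.08 with venetoclax, without overlap. Myb, which is often found beside Runx in T cell receptor enhancers, had 2 entries, and the entry with the larger difference is given. Its scores were -0.86 and -1.40 under vehicle and 0.44 and 2.16 under venetoclax. Its difference of 2.43 (SE 0.74, limma adjusted p = 0.15) was the largest among these factors and the 1 with an unadjusted p under 0.05. With a trended and robust variance this Myb entry passed, at a limma adjusted p of 0.00932, and the other Myb entry did not. In that fit 5.50% of all entries passed. Without venetoclax replicate 1 the difference was 3.29 for this Myb entry, -2.54 for Foxp3 and -3.23 for Gata3. Without venetoclax replicate 2 the Myb difference was 1.56.

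Lymphoid factors of the list had mixed signs. Ikzf1, the Ikaros repressor, differed by 1.33, and the Wnt-dependent factors Tcf7 and Lef1 by 0.70 and -0.59. Tcf7 had 2 entries, and the entry with the larger absolute difference is given. Lef1 turned to 0.14 without venetoclax replicate 2. Differences were nearer to 0 for Zbtb7b (-0.14), which opposes Runx3 in the choice of the CD4 lineage, and for Bcl11b (-0.10), a T lineage factor. They were also near 0 for Tbx21 (0.04) and Eomes (-0.20), the T-box partners of Runx3 in cytotoxic cells, and for Bach2 (0.11), a repressor of effector genes. With single samples left out Eomes stayed below 0, while the other 4 took both signs, from -0.83 to 0.54 for Zbtb7b, -0.80 to 0.60 for Bcl11b, -0.24 to 0.33 for Tbx21 and -0.24 to 0.46 for Bach2. None of these passed an adjusted p of 0.05 in limma.

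**Figure D4:**
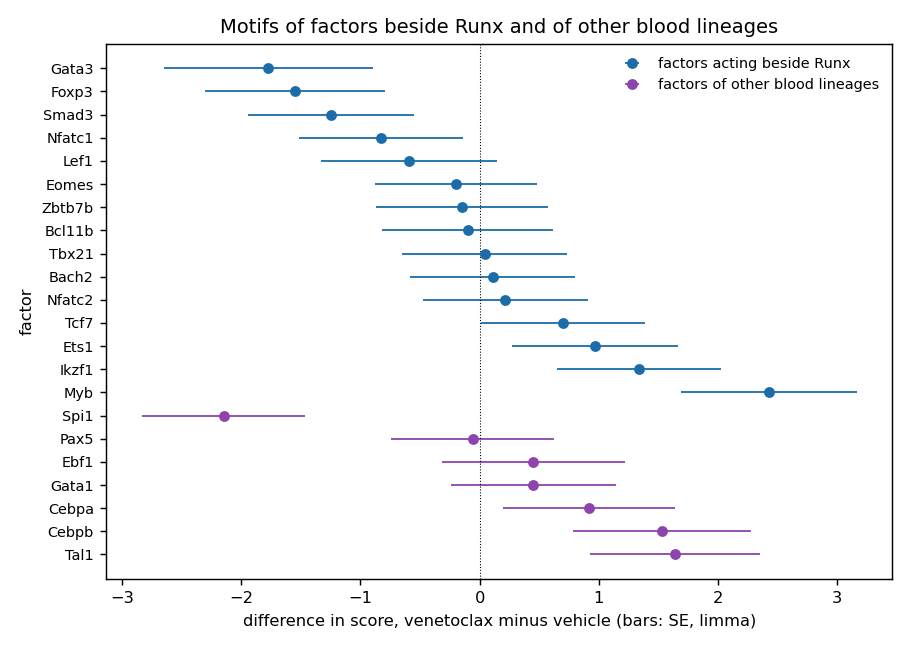
Difference in score, venetoclax minus vehicle (horizontal axis, bars are limma SE), for factors acting beside Runx and for factors of other blood lineages, with the entry of largest absolute difference for each factor. Values run from -1.77 for Gata3 to 2.43 for Myb in the first list and from -2.15 for Spi1 to 1.64 for Tal1 in the second.

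Motifs of 7 factors of other blood cells that a spleen sort could hold were read the same way, in 11 entries. None passed an adjusted p of 0.05 in limma, while 3 of the 11 had an unadjusted p under 0.05, against 18.3% of all entries. The list median was -0.06, and it was 0.20 after centring or quantile normalization and ranged from -0.24 to 0.073 with single samples left out, so it gave no direction. Spi1, the PU.1 factor of myeloid and B cells, had 2 entries. The entry with the larger difference had scores of 1.01 and 0.71 under vehicle and of -1.32 and -1.24 under venetoclax. Its difference was -2.15, without overlap. Cebpa and Cebpb, myeloid factors, differed by 0.92 and 1.53, the B cell factors Ebf1 and Pax5 by 0.45 and -0.06, and the erythroid factors Gata1 and Tal1 by 0.45 and 1.64. Ebf1 turned to -0.53 without venetoclax replicate 2 and to -0.14 without vehicle replicate 1. Pax5 turned to 0.073 without vehicle replicate 2. Without venetoclax replicate 2 the difference was 0.28 for Cebpa, 0.78 for Cebpb and 1.06 for Tal1, and without vehicle replicate 1 it was 0.15 for Gata1. The other entries with an unadjusted p under 0.05 were both of Tal1, which had 4 entries, at 1.64 and -1.61. With a trended and robust variance the Spi1 entry with the larger difference passed in limma, at an adjusted p of 0.0176. In that fit 5.50% of all entries passed. Without venetoclax replicate 1 the difference was -2.11 for that Spi1 entry, 2.27 for Cebpb, and 2.22 and -2.04 for those Tal1 entries. The part of other cells in the Runx scores was not tested.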

How the data were processed

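The authors deposited a chromVAR deviation score for every motif in every sample, as the name of their file says, beside means per group, the difference of these and its rank. The submitters' processing notes name Bowtie2, Picard, MACS2 and mm10, with neither version nor role. For the peak set, motif collection, filters and type of score, the sources used here give nothing. Of 12 sample columns, 4 matched labelled samples and 8 were not used. Recomputed differences matched those in the authors' deposited table to 1e-09.

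Scores were compared as deposited, without log, pseudocount or filter, with limma 3.58.1 (lmFit, eBayes) in R 4.3.3, two-sided, over 1346 entries with Benjamini-Hochberg adjustment. The spread shared over entries gave 21.0 degrees of freedom, 2 of them from an entry's own samples. An exact permutation test of 2 against 2 samples cannot go below p = 0.333 and was not used. The step was tested on simulated scores of independent entries, with added differences larger than that of any Runx entry. Such a test cannot tell whether differences as small as those of the Runx entries would be found.

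All Runx entries, the largest entry of each listed factor and the 5 symbols nearest to the Runx mean were named. Members and lists were chosen with earlier results of these data known. Older symbols were matched through RefSeq names (GRCm38.p6), also the source of the sequences. The list of factors beside Runx was fixed with 1 more factor, which is not reported here or counted.

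Alternatives were the replicate block, left-out samples, centring, scaling, quantile normalization, other variance models, 1 entry per distinct set, 1 value per symbol, direct entries, a minimum SD of 1 and other thresholds.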

Additional observations from a re-analysis of the deposited data

How the results depend on the processing

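The count of Runx entries past the threshold in limma was 0 under each alternative that gave a count, except the unadjusted threshold, where it was 1 (Runx3 LINE7309). Taking 1 value per symbol gave a median only. With each sample left out it stayed at 0. Runx3 LINE7309, LINE7316 and LINE7308 and Runx2 LINE1675 kept their sign under the 7 alternatives that can change an estimate (4 left-out samples, centring, division by the SD and quantile normalization), from 1.37 to 1.82, 1.00 to 1.82, -1.13 to -0.75 and 0.26 to 0.64. Runx1 LINE1674 and Runx3 LINE7301 turned to -0.075 without vehicle replicate 1 (range with a sample left out -0.075 to 0.88), and Runx3 LINE7312 to 0.01 without vehicle replicate 2 and 0.19 without venetoclax replicate 2 (range -1.69 to 0.19). The Runx median, 0.40, was 0.39 over distinct sets and ranged from -0.075 to 0.88 with a sample left out. In each of those left-out fits it was the value of Runx1 LINE1674 and its copy LINE7301. It was -0.75 where a minimum SD of 1 left only Runx3 LINE7312. The count over all entries, 0, was 337 at most with a sample left out (without venetoclax replicate 1), 74 with a trended and robust variance, 6 at an adjusted threshold of 0.10 and 246 at the unadjusted one. For factors beside Runx, the median of -0.12 was 0.14 after centring, 0.095 after quantile normalization and -1.55 with a minimum SD of 1, which left 3 entries. Their count of 0 was 3 at most with a sample left out, 1 with a trended and robust variance and 1 at the unadjusted threshold. For other blood lineages the median of -0.06 was 0.20 after centring and after quantile normalization, also 0.20 with 1 entry per distinct set, from -0.24 to 0.073 with a sample left out and 1.53 with a minimum SD of 1, which left 3 entries, and the count of 0 was 4 at most with a sample left out, 1 with a trended and robust variance and 3 at the unadjusted threshold. With a sample left out, the lone sample of a group is assumed to vary like the other group. With the replicate number as a block, limma called 0 entries in all and 0 Runx entries, with a smallest Runx adjusted p of 0.546. The numbers are not known to pair the samples, and same-numbered deviations correlated at -0.27 over entries. With the crossed pairing, added after seeing the data, limma called 0 entries in all and 0 Runx entries. The cause of these changes was not tested, except where fewer entries remained. Depth is unknown, so no limit from depth can be given.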
